A study of Mus musculus with 34 samples.

Results

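Corneodesmosin (Cdsn), resistin-like alpha (Retnla), transglutaminase 2 (Tgm2) and WAP four-disulfide core domain 21 (Wfdc21) were followed in mouse 3T3-L1 cells depleted of KDM5 demethylases. These 4 genes, of 17515 transcripts in the RNA table, were chosen by their RNA difference between knockdown and control cells, which was among the lowest at 1 or more times, so that difference is given below as a description with no test. All 4 were among the 13534 transcripts that passed the filter on low values (a log2 value of at least 1 in at least 2 libraries). 3T3-L1 is a fibroblast-like preadipocyte line that turns into fat-storing cells when induced. The knockdown cells, shKdm5ABC, were transduced with lentiviral short hairpin RNAs against Kdm5a, Kdm5b and Kdm5c, and the control cells, shLuc, with a lentiviral control hairpin. Both arms were transduced before confluence, 4 days ahead of induction, for 24 hours with 6 ug/mL polybrene. Both were collected at day 0 (post-confluent, before induction), at 4 hours and at day 2 after the addition of fetal bovine serum with insulin, 3-isobutyl-1-methylxanthine and dexamethasone. Each of the 6 RNA groups had 2 libraries, numbered as experiments, and nothing says whether these came from separate cultures. ChIP for KDM5A (2 libraries at each of the 3 times) and KDM5C (2 libraries at day 2) was made from 3T3-L1 cells for which no transduction is stated.

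KDM5 proteins remove methyl groups from lysine 4 of histone H3, a mark that in its trimethylated form (H3K4me3) sits at the start sites of active genes. Cdsn encodes an adhesive protein of corneodesmosomes, the junctions that hold the outermost epidermal cells together. Retnla encodes a small secreted protein of the resistin family, best known in the mouse from alternatively activated macrophages and also made in fat tissue. Tgm2 encodes a calcium-dependent enzyme that crosslinks proteins, and retinoic acid is a known inducer of it. Wfdc21 encodes a small secreted protein with a whey acidic protein domain.

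Promoter sequences were held by the RefSeq table (build GRCm38.p6) for Retnla and Cdsn, 2 of the 4 genes, and are shown so that the start sites of a gene that rose with differentiation and of one that fell can be read side by side. Each runs 5′ to 3′ on the plus strand, from 250 bases before to 50 bases after an annotated start. Cdsn has 2 annotated starts, called A and B here, and which of them the deposited transcript uses was not determined. Capitals mark every match on either strand to TATAAA (the TATA box), CCGCCC (bound by the ARID domain of KDM5A), TTGCNNAA (bound by C/EBP factors), TGACG (the cAMP response half-site) or AGAACA (the glucocorticoid receptor half-site). No matches overlapped. The positions are chr16:48842359-48842658 for Retnla, chr17:35542851-35543150 for Cdsn A and chr17:35551878-35552177 for Cdsn B.
Retnla: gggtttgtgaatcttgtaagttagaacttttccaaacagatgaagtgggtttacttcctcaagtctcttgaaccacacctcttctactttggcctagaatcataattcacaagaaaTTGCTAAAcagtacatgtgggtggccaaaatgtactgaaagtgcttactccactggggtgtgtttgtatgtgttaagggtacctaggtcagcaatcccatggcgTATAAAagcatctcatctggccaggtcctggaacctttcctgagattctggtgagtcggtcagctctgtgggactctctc
Cdsn A: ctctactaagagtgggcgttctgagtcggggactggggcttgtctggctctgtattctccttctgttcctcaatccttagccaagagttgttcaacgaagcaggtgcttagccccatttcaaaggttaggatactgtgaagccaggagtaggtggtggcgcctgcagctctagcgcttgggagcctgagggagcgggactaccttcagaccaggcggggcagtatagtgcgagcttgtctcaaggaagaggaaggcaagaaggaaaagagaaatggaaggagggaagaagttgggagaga
Cdsn B: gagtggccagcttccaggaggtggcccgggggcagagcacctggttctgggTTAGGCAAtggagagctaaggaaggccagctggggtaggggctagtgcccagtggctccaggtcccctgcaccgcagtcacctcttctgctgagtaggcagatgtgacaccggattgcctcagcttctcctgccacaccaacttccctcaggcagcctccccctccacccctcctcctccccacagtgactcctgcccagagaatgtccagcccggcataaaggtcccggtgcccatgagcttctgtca
The Retnla window held a TATA box 30 bases upstream of the start and a C/EBP match 134 bases upstream. The Cdsn B window held a C/EBP match 199 bases upstream, and the Cdsn A window held none of the 5 motifs. Of 32851 promoters of the same length, 13.6% held the TATA motif, 10.8% the C/EBP motif, 35.7% the KDM5A motif, 20.8% the cAMP half-site and 19.0% the glucocorticoid receptor half-site. The Retnla window had 2 CpG dinucleotides and a CpG observed-to-expected ratio of 0.134, and 18.6% of promoters were lower. Cdsn B had 5 CpG dinucleotides and a ratio of 0.170, with 24.0% of promoters lower, and Cdsn A had 8 and a ratio of 0.402, with 51.5% lower, against a median of 0.384 over all promoters. These matches describe letters in the windows and are not measured binding sites.

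Cdsn was lower in knockdown cells before induction and 4 hours into it. At day 0 its RNA was at 4.59 and 5.43 log2 tags per kb in shKdm5ABC cells, against 8.26 and 9.09 in shLuc cells. At 4 hours it was at 5.34 and 5.63 in shKdm5ABC cells and at 8.50 and 8.74 in shLuc cells. The 2 arms stood far apart at both times, and the shKdm5ABC libraries held 7.88% and 11.3% of the shLuc level (differences of -3.67 and -3.14 on the log2 scale, SE 0.51). Cdsn was the lowest of the 13534 transcripts by this difference at both times, ahead of Rsad2 (-3.44) at day 0 and Oas1a (-2.43) at 4 hours. At day 2 the values were 2.77 and 4.42 in shKdm5ABC cells and 3.62 and 4.40 in shLuc cells. The arms then overlapped, with a difference of -0.41 (SE 0.51). That difference took either sign, -1.24 to 0.41, as 1 of its 4 libraries was left out. Cdsn thus stood above 85.0% of tested transcripts in shLuc cells at day 0 and above 21.7% in shLuc cells at day 2, while in shKdm5ABC cells it stood above 26.2% at day 0 and 17.6% at day 2.

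Retnla, Tgm2 and Wfdc21 were lower in knockdown cells at day 2. Retnla was at 6.79 and 6.17 log2 tags per kb in shKdm5ABC cells at day 2, against 8.73 and 8.34 in shLuc cells. That was 24.1% of the shLuc level (-2.06, SE 0.33), the 2nd lowest difference of all tested transcripts after G0s2 (-2.18). Its earlier levels were 3.11 and 3.65 in shKdm5ABC cells and 3.07 and 2.85 in shLuc cells at day 0, and 3.88 and 3.26 against 4.00 and 3.37 at 4 hours. Retnla was thus low in both arms until 4 hours, with shKdm5ABC slightly above shLuc at day 0 (0.42) and the arms overlapping at 4 hours (-0.11).

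Wfdc21 was at 6.46 and 7.45 log2 tags per kb in shKdm5ABC cells at day 2, and at 8.54 and 8.67 in shLuc cells. This left 31.8% of the shLuc level (-1.65, SE 0.36), the 5th lowest difference. At day 0 the values were 3.67 and 4.72 in shKdm5ABC cells and 3.63 and 3.40 in shLuc cells. At 4 hours they were 3.89 and 3.81 in shKdm5ABC cells and 4.10 and 4.24 in shLuc cells. The shKdm5ABC libraries were therefore above both shLuc libraries at day 0 (0.68) and below both at 4 hours (-0.32) and day 2.

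Tgm2 had the lowest day 2 level in shLuc cells of the 3 genes that were lower in the knockdown at that time. It was at 3.84 and 4.13 log2 tags per kb in shKdm5ABC cells at day 2, against 5.87 and 5.44 in shLuc cells, or 31.5% of the shLuc level (-1.67, SE 0.35, the 4th lowest difference). At 4 hours the order was the other way, with 4.23 and 3.82 in shKdm5ABC cells and 3.47 and 3.02 in shLuc cells (0.78). At day 0 the arms overlapped, with 3.24 and 2.81 in shKdm5ABC cells and 2.91 and 1.89 in shLuc cells (0.63). The transcript next after these 3 genes in the day 2 order was Adgrf5 (6th, -1.64).

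**Figure D1:**
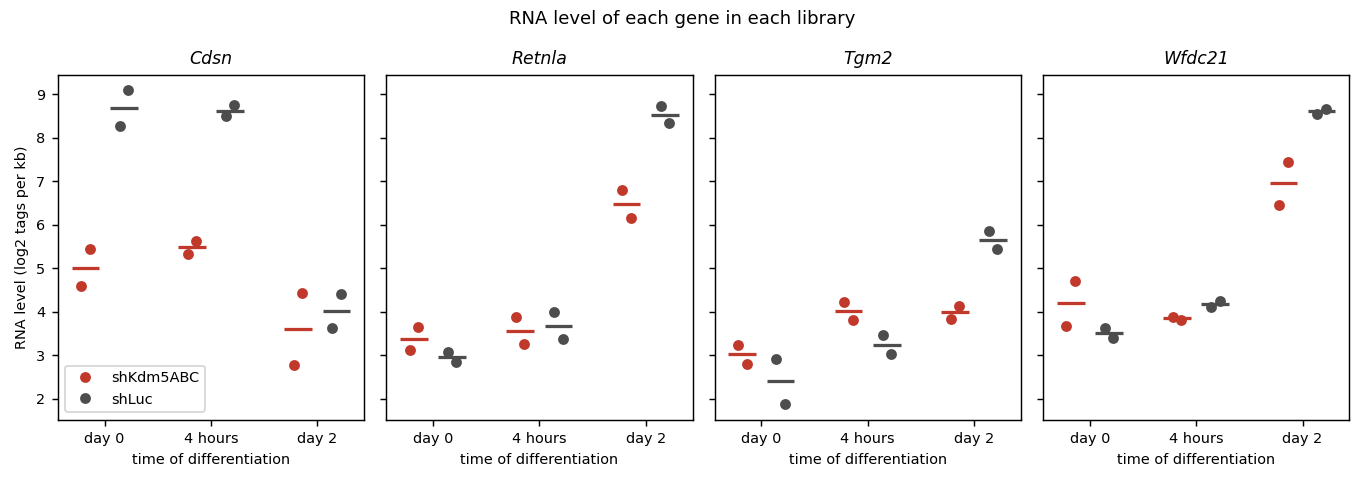
RNA level of each gene (log2 tags per kb) by time of differentiation, with shKdm5ABC libraries in red left of shLuc libraries in grey; points are single libraries and lines are means of 2. Cdsn is at 8.26 to 9.09 in shLuc cells at day 0 and 4 hours, above every shKdm5ABC library, while the other 3 genes separate with shLuc higher at day 2.

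Both shKdm5ABC libraries lay below both shLuc libraries for 1 of the 4 genes at day 0 (Cdsn), where 20.1% of all tested transcripts showed that order. They did so for 2 of 4 at 4 hours (Cdsn and Wfdc21), beside 19.3% of all transcripts, and for 3 of 4 at day 2 (Retnla, Tgm2 and Wfdc21), beside 27.1%. The choice of the genes fixed these counts, and nothing is read from them.

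**Figure D2:**
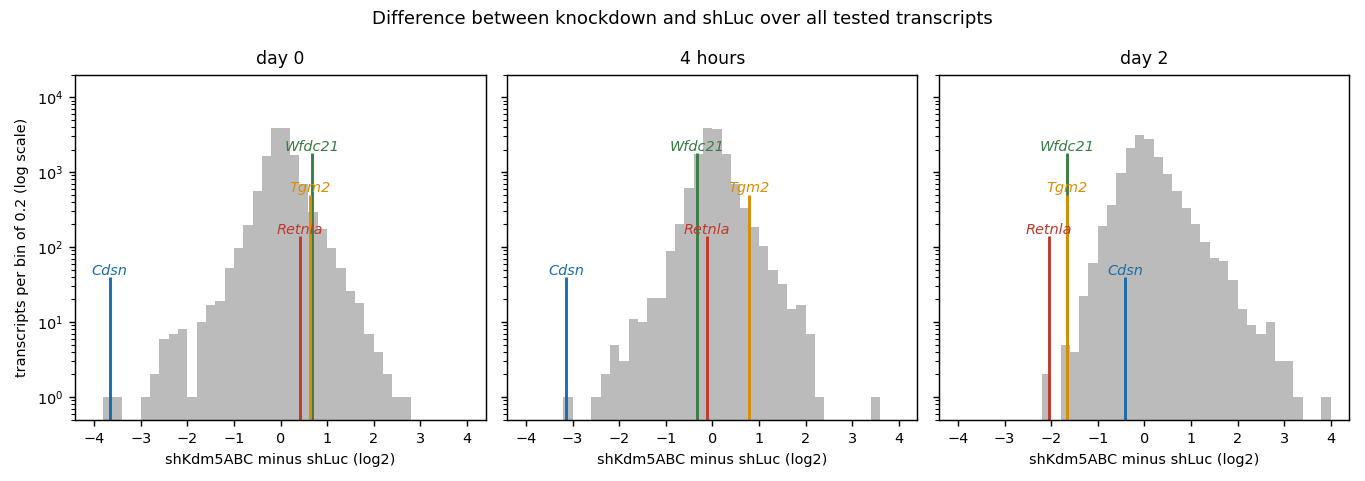
Difference between shKdm5ABC and shLuc (log2) over the 13534 tested transcripts at each time, as counts per bin of 0.2 on a log axis, with coloured lines at the 4 genes. Cdsn lies at the lower end at day 0 (-3.67) and 4 hours (-3.14), and Retnla (-2.06), Tgm2 (-1.67) and Wfdc21 (-1.65) at day 2.

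The targeted RNAs were reduced at every time, with 38.0% to 39.7% of the shLuc level left for Kdm5c, 50.7% to 58.1% for Kdm5a and 60.2% to 63.9% for Kdm5b. All 10 adipocyte markers (among them Pparg, Fabp4 and Adipoq) rose and all 10 preadipocyte fibroblast markers (among them Dlk1 and Pdgfra) fell between day 0 and day 2 over both arms, by limma at an adjusted p under 0.05. Of all tested transcripts 31.0% rose and 31.7% fell over that interval. In such bulk libraries, fewer cells that express a gene and less RNA per cell cannot be told apart. At day 2 the summed level of the adipocyte markers was 20511 to 34228 tags per kb in shKdm5ABC cells and 37287 to 47080 in shLuc cells, and that of the preadipocyte markers was 10997 to 14888 in shKdm5ABC cells and 6923 to 10059 in shLuc cells. Both sums separated the arms, the adipocyte sum in the direction of Retnla, Tgm2 and Wfdc21 and the preadipocyte sum in the opposite one, and their part in those differences was not tested. Such sums weigh the most abundant genes most. The highest adipocyte marker was Fabp4, at 13.27 log2 tags per kb in shKdm5ABC cells and 14.25 in shLuc cells. Differences of the single adipocyte markers at day 2 ran from -1.16 (Cd36) to 0.15 (Adipoq). By limma 0 of the 10 adipocyte markers passed the test between the arms at day 2, where 8 had a lower mean in shKdm5ABC cells and 4 had an unadjusted p under 0.05. Those 4 (Cd36, Cebpa, Fabp4 and Pparg) passed as lower in shKdm5ABC cells with the replicate number as a block. With it 1924 of all 13534 tested transcripts passed as lower and 1885 as higher. Of the 10 preadipocyte markers, 1 passed as higher in shKdm5ABC cells at day 2 (Pdgfra, 1.19, SE 0.26, adjusted p 0.0230), beside 5.66% of all transcripts. With the block 6 passed as higher. At day 0 Cebpa was higher in shKdm5ABC cells (1.09, SE 0.22, adjusted p 0.0466), beside 0.606% of all transcripts. With the block 4 adipocyte markers passed as higher in shKdm5ABC cells at day 0, beside 593 of all 13534 transcripts. At day 0, where Cdsn stood apart, preadipocyte markers summed to 42090 to 46078 in shKdm5ABC cells and 54944 to 62546 in shLuc cells. At 4 hours, where Cdsn stood apart as well, they summed to 32521 to 39451 in shKdm5ABC cells and 47171 to 54012 in shLuc cells. Both sums were lower in shKdm5ABC cells, as Cdsn was, and their part was likewise not tested. By their means 8 of the 10 markers were lower at day 0 and 7 at 4 hours. Pdgfra and Cd34 were higher in shKdm5ABC cells at both times, and Thy1 was higher at 4 hours. Fn1 was the 1 marker of the 10 that passed at these times. With the block 2 passed as lower in shKdm5ABC cells at day 0 and 3 at 4 hours. Of all 13534 transcripts, 684 passed as lower with the block at day 0 and 690 at 4 hours.

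The change with time, averaged over both arms, was not used to choose the genes and was tested. It has a link to the choice, since a gene can only be much lower in the knockdown at a time when shLuc cells express it. Between day 0 and day 2, Retnla rose by 4.33 on the log2 scale (SE 0.23, adjusted p 2.03e-07), Wfdc21 by 3.92 (SE 0.25, adjusted p 5.37e-07) and Tgm2 by 2.11 (SE 0.25, adjusted p 3.34e-05). Cdsn fell by 3.04 over the same interval (SE 0.36, adjusted p 3.58e-05). All 4 genes passed this test, beside 62.6% of all tested transcripts (31.0% up, 31.7% down). Each direction was shared by the 2 arms. Retnla changed by 3.10 in shKdm5ABC cells and 5.57 in shLuc cells, Wfdc21 by 2.76 in shKdm5ABC cells and 5.09 in shLuc cells, and Tgm2 by 0.96 in shKdm5ABC cells and 3.25 in shLuc cells. Cdsn changed by -1.41 in shKdm5ABC cells and -4.67 in shLuc cells. The gap between the arms in these changes restates the knockdown differences that chose the genes.

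Tgm2 was the 1 gene of the 4 that passed this averaged test between day 0 and 4 hours without a block. It rose by 0.92 between day 0 and 4 hours (SE 0.25, adjusted p 0.00853), beside 58.7% of all transcripts called (27.9% up, 30.8% down). Retnla (0.45, adjusted p 0.115), Wfdc21 (0.15, adjusted p 0.626) and Cdsn (0.21, adjusted p 0.645) did not pass. With the replicate number as a block, Retnla did (adjusted p 0.0475). By arm, untested, Wfdc21 changed by -0.35 in shKdm5ABC cells and 0.65 in shLuc cells, so its average joined opposite changes. Retnla changed by 0.19 in shKdm5ABC cells and 0.72 in shLuc cells, and Cdsn by 0.47 and -0.05. Tgm2 changed by 1.00 in shKdm5ABC cells and 0.85 in shLuc cells. Between 4 hours and day 2 all 4 passed, beside 57.6% of all transcripts (28.7% up, 28.9% down): Retnla by 3.88 (adjusted p 4.53e-07), Wfdc21 by 3.77 (adjusted p 9.13e-07), Tgm2 by 1.18 (adjusted p 0.00211) and Cdsn by -3.25 (adjusted p 2.78e-05). For Tgm2 this last average joined a change of -0.04 in shKdm5ABC cells to one of 2.41 in shLuc cells.

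Over the 12 RNA libraries, Retnla and Wfdc21 followed each other most closely, with a Pearson r of 0.975, and Tgm2 had an r of 0.865 with Retnla and 0.821 with Wfdc21. Cdsn ran the other way, with an r of -0.663 to -0.685 with the other 3. These values describe libraries that share the same 3 times and 2 arms. The knockdown differences that chose the genes also enter these values and those of the most similar transcripts below, so they are a description only. The transcripts most like Wfdc21 were Elovl3 (r = 0.992), a fatty acid elongase, Uqcrc1 (0.989), a subunit of respiratory complex III, and Mrpl44 (0.988), a mitochondrial ribosomal protein. Elovl3 was at 3.03 log2 tags per kb in shKdm5ABC cells and 4.60 in shLuc cells at day 2. Those most like Retnla were Zwilch (0.987), a kinetochore protein, Rfc5 (0.987), a clamp loader of DNA replication, and Ndufb10 (0.985), a subunit of respiratory complex I. Zwilch was at 6.95 in shKdm5ABC cells and 7.79 in shLuc cells at day 2. Those most like Tgm2 were Gpn3 (0.974), Hpdl (0.959) and Pex5 (0.956), the import receptor of peroxisomes. Those most like Cdsn were Aldh1l2 (0.972), a mitochondrial folate enzyme, Tceal8 (0.941) and Lamp2 (0.928), a lysosomal membrane protein. Aldh1l2 was at 6.44 in shKdm5ABC cells and 8.35 in shLuc cells at day 0, and at 5.23 in shKdm5ABC cells and 5.50 in shLuc cells at day 2.

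No H3K4me3 promoter peak was named for any of the 4 genes, so the mark's response to the knockdown could not be read at their start sites. The table lists 10702 promoter peaks, and 26.6% of tested transcripts had none by name. Among the 2030 transcripts at or above the level of Cdsn in shLuc cells at day 0, 12.8% had none. Among the 2546 at or above Retnla in shLuc cells at day 2 the share was 14.0%, for the level of Wfdc21 it was 13.9% and for that of Tgm2 it was 15.3%. The nearest listed peak centre lay 6.89 kb from the Wfdc21 start (the peak of Heatr6), 35.4 kb from the Cdsn start (Tcf19) and 117 kb from the Tgm2 start (Rprd1b). A gene without a listed peak may still carry the mark below the authors' calling threshold.

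KDM5A signal at the peaks of Tgm2, Cdsn and Wfdc21 was below that of most start-site peaks and spread around the middle of all KDM5A peaks. Tags are counted per peak and were not adjusted for peak length. KDM5A peaks were named for Tgm2 (14), Cdsn (3) and Wfdc21 (3), and none for Retnla. These 20 peaks averaged 4.07 to 32.0 tags over the 6 libraries, with 0 to 3.60 tags in the input, while all 11573 KDM5A peaks within 1000 bp of a start site had a median of 162 tags and all 87525 KDM5A peaks one of 7.18 tags. Of the 20, 11 were above that overall median, and the 5 with at least 20 tags were above 77.3% to 82.9% of all peaks. 3 of the 20 lay within 1000 bp of a start and 17 farther away. At Cdsn (mm9, chr17:35688635-35690480, centred 484 bp downstream of the start) the values were 31.2 and 25.6 tags at day 0, 26.8 and 28.4 at 4 hours, and 11.4 and 27.8 at day 2. That mean of 25.2 tags was above 80.1% of all KDM5A peaks and above 19.3% of those within 1000 bp of a start. At Wfdc21 (chr11:83560239-83560739, 47 bp downstream) the values were 2.93 and 1.14 at day 0, 3.35 and 5.17 at 4 hours, and 9.08 and 17.0 at day 2. At Tgm2 (chr2:157971604-157972375, 139 bp downstream) they were 8.78 and 2.27 at day 0, 6.70 and 5.17 at 4 hours, and 0 and 12.4 at day 2. The start-site peaks of Wfdc21 and Tgm2 rest on a handful of reads in each library.

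Away from the starts, 4 peaks averaged at least 20 tags. The highest was 22483 bp upstream of Tgm2 (chr2:157994267-157994956), with 39.0 and 18.2 tags at day 0, 36.0 and 33.6 at 4 hours, and 29.5 and 35.6 at day 2. A second peak, 6671 bp downstream of the Tgm2 start (chr2:157965207-157965707), had 19.5 and 13.1 tags at day 0, 41.9 and 41.3 at 4 hours, and 31.8 and 24.0 at day 2. Both of its 4-hour libraries were above both day 0 libraries, but the difference did not pass (1.33, SE 0.60, adjusted p 0.81). The third, 24429 bp downstream of the Tgm2 start (chr2:157947237-157948161), had 19.5 and 6.82 tags at day 0, 35.2 and 12.9 at 4 hours, and 27.2 and 21.7 at day 2. At Cdsn, a peak 5066 bp downstream (chr17:35693816-35694462) had 41.9 and 16.5 tags at day 0, 34.3 and 31.0 at 4 hours, and 15.9 and 28.6 at day 2.

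None of the 20 peaks changed with time at an adjusted p under 0.05 by limma, beside 0.0606% of all KDM5A peaks called between day 0 and 4 hours, 0.173% between day 0 and day 2 and 0.607% between 4 hours and day 2. At an unadjusted p under 0.05 there were 2, 3 and 1 in the same order, and edgeR on the recovered reads called 0 in each. The peak with the lowest adjusted p, singled out after its values were seen, lies 1189 bp downstream of the Wfdc21 start (chr11:83561260-83562003). It had 5.85 and 1.70 tags at day 0, 12.6 and 15.5 at 4 hours, and 27.2 and 18.6 at day 2 (day 2 minus day 0 of 2.45, SE 0.76, adjusted p 0.185). Its tags were low at day 0 in both libraries and higher in all 4 later ones.

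KDM5C was measured at day 2 in 2 libraries. 2 of its peaks were named for Wfdc21, 1 for Tgm2, 1 for Cdsn and none for Retnla. The peak 1347 bp downstream of the Wfdc21 start (chr11:83561141-83562438) had 47.5 and 28.3 tags, beside 3.60 in the input, and its mean was above 94.5% of all KDM5C peaks and 83.0% of those within 1000 bp of a start. It overlapped the KDM5A peak described last by 744 bases. The Tgm2 peak, 15938 bp downstream (chr2:157955771-157956609), had 40.7 and 19.7 tags, and its mean was above 91.1% of all KDM5C peaks and 74.2% of those within 1000 bp of a start. The Cdsn peak, 899 bp downstream (chr17:35689722-35690222), had 13.6 and 1.23 tags, or 4 reads and 1 read. The further Wfdc21 peak, 11066 bp upstream (chr11:83549126-83549626), had 6.79 and 14.8 tags. 3 of the 4 KDM5C peaks overlapped a KDM5A peak of the same gene, among them the Cdsn peak of few reads. The share of all KDM5C peaks with such an overlap was not worked out, so nothing is read from this count.

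**Figure D3:**
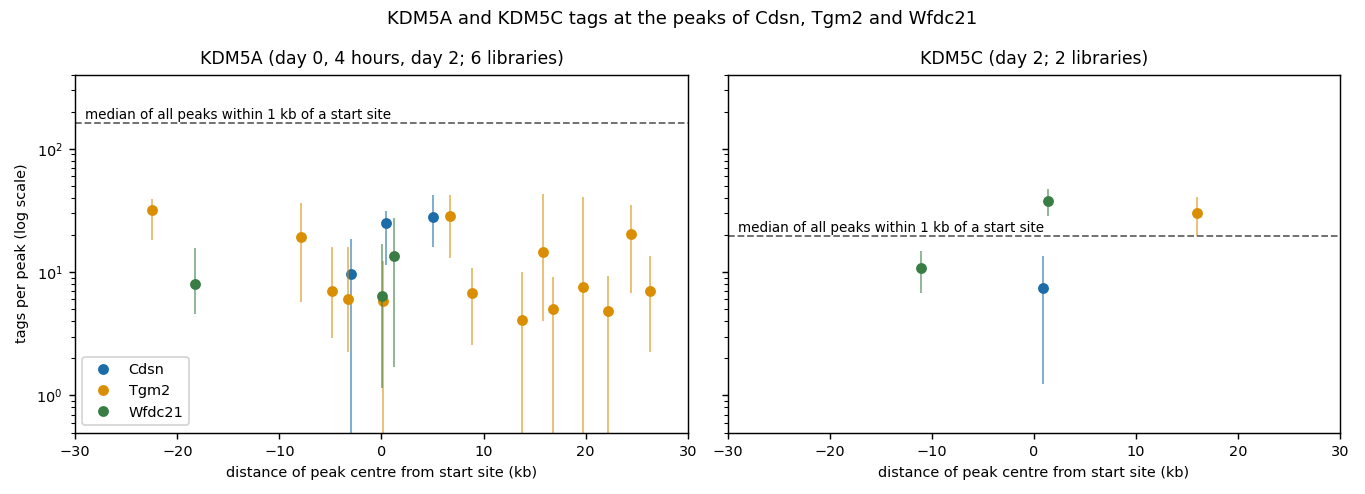
Tags per peak (log axis) against the distance of the peak centre from the start site (kb; positive is downstream) for KDM5A and KDM5C. Points are means over libraries, vertical lines run over the lowest to the highest library (cut at 0.5 tags), and the dashed line is the median of all peaks within 1000 bp of a start site. All 20 KDM5A peaks lie below that median of 162 tags.

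Retn (resistin), the relative of Retnla that gives the family its name, had listed peaks where Retnla had none. It carried an H3K4me3 promoter peak, a KDM5A peak 333 bp from its start averaging 63.1 tags and a KDM5C peak averaging 278 tags. Its RNA averaged 9.53 log2 tags per kb in shKdm5ABC cells and 9.53 in shLuc cells at day 2 (SE of the difference 0.53, adjusted p 0.999). Retn rose by 6.43 between day 0 and day 2 (SE 0.38, adjusted p 3.20e-07). Retnlg, another family member, was below the filter. The H3K4me3 peak of Retn had 118 to 265 tags in the 4 libraries labelled as knockdown at 4 hours and day 2 and 12.7 to 26.1 tags in the other 8. Retn RNA did not follow those labels, at 3.06 in shKdm5ABC cells at 4 hours and 9.53 in shLuc cells at day 2, so no difference between arms or times is read from the H3K4me3 libraries. Whether library labels were exchanged was not tested.

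Genes related to the 4 by pathway or family mostly did not pass the test between shKdm5ABC and shLuc, where limma called 1.51% of all transcripts at day 0 (0.606% up, 0.901% down), 1.44% at 4 hours (0.798% up, 0.643% down) and 9.00% at day 2 (5.66% up, 3.34% down). With the replicate number as a block it called 1277 transcripts at day 0 instead of 204, 1310 at 4 hours instead of 195 and 3809 at day 2 instead of 1218. In these comparisons of related genes, rose and fell mean higher and lower in shKdm5ABC than in shLuc cells at the same time. Of 7 measured genes of the cornified envelope and corneodesmosome other than Cdsn, 1 rose at 4 hours and 0 fell at any time, against a median difference over all transcripts of 0.00 to 0.01 in size. The riser was Sbsn, a suprabasin of skin, at 5.60 log2 tags per kb in shKdm5ABC cells and 4.57 in shLuc cells (1.03, SE 0.21, adjusted p 0.0447). With the block Sbsn also passed at day 2 (0.64, adjusted p 0.0294). At day 0, where Cdsn differed by -3.67, the 7 had a median difference of 0.00. Dsp and Dsc1, which encode desmosomal proteins, were below the filter in this table, while Jup and Pkp1, which also do, were among the 7. Jup averaged 6.27 in shKdm5ABC cells and 5.99 in shLuc cells at day 0. Pkp1 averaged 0.03 in shKdm5ABC cells and 0.04 in shLuc cells at day 0, and 2.91 and 3.26 at day 2.

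Of the transglutaminase family, Tgm4 and F13a1 were measured and 0 of 2 passed by limma at any time, with or without the block. At an unadjusted p under 0.05 there were 0 at day 0, and F13a1 at 4 hours and at day 2, where it was higher in shKdm5ABC cells. Tgm4 was at 4.77 in shKdm5ABC cells and 4.79 in shLuc cells at day 2. Of 13 measured partners and substrates of transglutaminase 2, 1 fell at day 0 and at 4 hours, and 3 rose and 0 fell at day 2 (median 0.37). Fn1, fibronectin of the matrix and a substrate of the enzyme, was lower in shKdm5ABC cells by 1.25 at day 0 (SE 0.16, adjusted p 0.00583). At 4 hours it was lower by 1.26 (adjusted p 0.00745). At day 2 Ltbp1, a latent TGF-beta binding protein, was higher in shKdm5ABC than in shLuc cells by 1.42 (SE 0.20, adjusted p 0.00394). Spp1 (osteopontin) was higher by 0.91 (SE 0.18, adjusted p 0.0157) and Lrp1, an endocytic receptor, by 0.56 (SE 0.15, adjusted p 0.0426). Between day 0 and day 2, over both arms, Ltbp1 changed by -1.93, Spp1 by -4.58 and Lrp1 by -0.63. With the block the counts were 2 down at day 0 and at 4 hours and 5 up at day 2.

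Of 11 measured genes of the retinoic acid response, 1 rose and 0 fell at day 0 (median 0.28) and at 4 hours (median 0.24), and by limma 0 passed at day 2 (median 0.45, 4 at an unadjusted p under 0.05), where Tgm2 was lower. Rarres2 (chemerin, a secreted chemoattractant) was higher in shKdm5ABC cells by 1.29 at day 0 (SE 0.21, adjusted p 0.0158) and 1.62 at 4 hours (adjusted p 0.00899). With the block 2 rose at day 0, and 4 rose and 1 fell (Dhrs3, a retinal reductase) at day 2. Of 4 measured genes with WAP domains, Slpi, a secreted protease inhibitor, was higher in the knockdown at day 2, where Wfdc21 was lower. It was at 6.02 in shKdm5ABC cells and 4.99 in shLuc cells (1.03, SE 0.27, adjusted p 0.0450). Slpi and Wfdc3 were also higher in shKdm5ABC cells at day 0 with the block.

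Of 12 measured secreted factors of adipocytes, 1 rose at day 0 and at 4 hours (Rarres2) and 1 fell at day 2. Saa3 (serum amyloid A) was lower in shKdm5ABC cells by 0.99 at day 2 (SE 0.24, adjusted p 0.0298). With the block 3 rose and 1 fell at day 0, 4 rose at 4 hours, and 1 rose and 2 fell at day 2. Of 7 measured genes of STAT6 signalling and alternative activation, the setting in which Retnla is best known, 2 rose and 0 fell at day 2. Il4ra, the receptor of interleukin-4, was higher in shKdm5ABC cells by 1.03 (SE 0.19, adjusted p 0.0118) and Socs1, a feedback inhibitor, by 1.38 (SE 0.21, adjusted p 0.00602). With the block 1 fell at day 0 (Il13ra1) and at 4 hours (Ccl11), and 3 rose at day 2. In all, 16 calls of lists and cell type markers were made in the 3 knockdown comparisons, and 1 (Ltbp1 at day 2) remained with each library of its comparison left out in turn. Under the other settings 6 of the 16 were lost, at an adjusted p of up to 0.0511 to 0.0860. These were Slpi and Lrp1 without the mean-variance trend, with median centring and without the filter, Cebpa without the trend and without the filter, and Saa3, Sbsn and Cd68 at 4 hours without the filter.

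**Figure D4:**
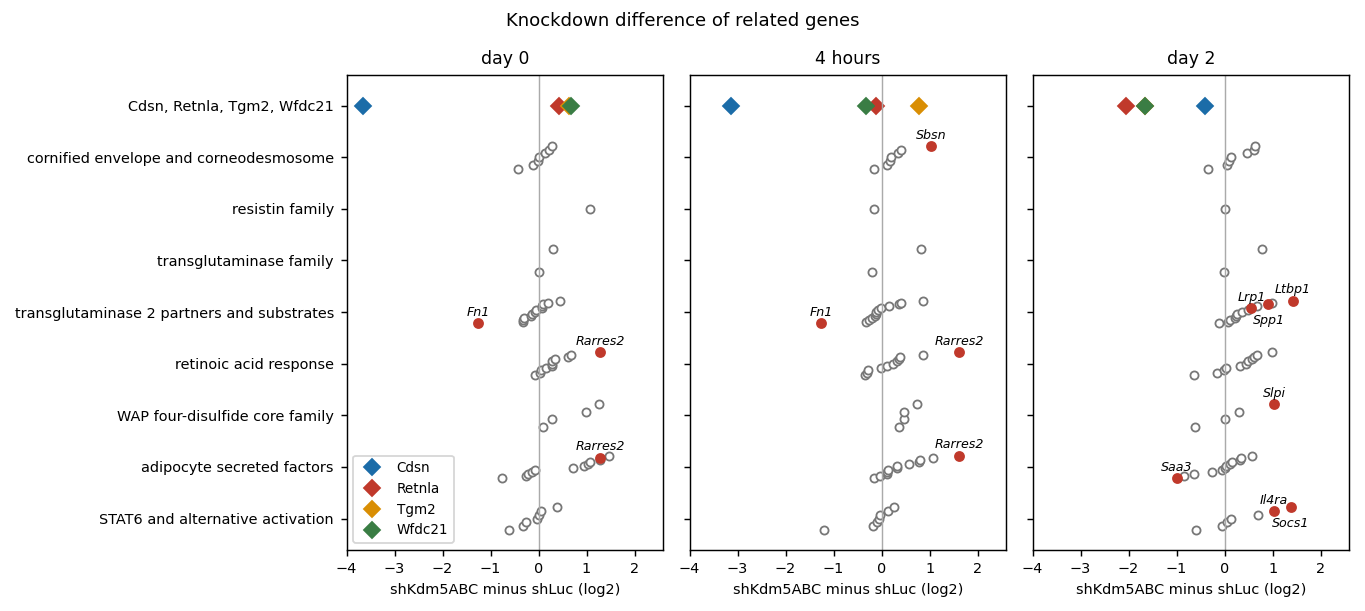
Difference between shKdm5ABC and shLuc (log2) for the measured genes of each list at each time; filled red points passed the test (limma, adjusted p under 0.05) and open points did not, and diamonds in the top row are the 4 genes, untested. Cdsn lies at -3.67 at day 0 while the measured genes of its list centre on 0.00.

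Markers of the cell types in which these genes are best known were measured in part. Of the 11 macrophage markers 10 were in the table and 4 passed the filter. Ptprc, Adgre1 and Itgam were at most -3.02 log2 tags per kb in any library, while Cd14, a receptor for bacterial lipopolysaccharide, reached 7.45, Cd68, a lysosomal protein, 5.93, and Lyz2, a lysozyme, 5.60. Csf1r reached 1.53, Fcgr1 1.01, Mrc1 -1.78 and C1qb -4.20. The markers summed to 164 to 172 tags per kb in shKdm5ABC cells and 94.2 to 120 in shLuc cells at day 0. At 4 hours the sums were 185 to 271 in shKdm5ABC cells and 137 to 187 in shLuc cells, and at day 2 they were 58.8 to 83.4 in shKdm5ABC cells and 41.7 to 62.9 in shLuc cells. The arms were apart at day 0, with shKdm5ABC higher, and overlapped at both later times. At day 2 Retnla alone was at 89.2 tags per kb in shKdm5ABC cells and 371 in shLuc cells by its group means. Cd68 was at 5.85 log2 tags per kb in shKdm5ABC cells and 4.35 in shLuc cells at day 0 (adjusted p 0.0144). At 4 hours it was higher in shKdm5ABC than in shLuc cells by 1.28 (adjusted p 0.0334). With the block Cd14 was higher in shKdm5ABC cells at day 2.

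Of the 10 keratinocyte markers 7 were in the table and 5 passed the filter. Krt5, a keratin of basal keratinocytes, was at most -2.71 log2 tags per kb in any library. Krt15, another basal keratin, was at 8.31 in shKdm5ABC cells and 7.89 in shLuc cells at day 2, Krt10, a keratin of the upper layers, at 5.44 in shKdm5ABC cells and 4.90 in shLuc cells, and Krt14, the usual partner of Krt5, at 5.09 in shKdm5ABC cells and 4.31 in shLuc cells. The list summed to 58.2 to 59.2 tags per kb in shKdm5ABC cells and 46.7 to 52.1 in shLuc cells at day 0, to 245 to 274 in shKdm5ABC cells and 213 to 225 in shLuc cells at 4 hours, and to 358 to 512 in shKdm5ABC cells and 235 to 413 in shLuc cells at day 2. The sums were higher in shKdm5ABC cells at day 0 and 4 hours, opposite in direction to Cdsn, and overlapped at day 2. Over both arms 4 of the 5 measured markers rose and 0 fell between day 0 and day 2, beside 31.0% of all transcripts up and 31.7% down, while Cdsn fell. Between the arms 0 of 5 passed the test by limma at any time, with or without the block, while at an unadjusted p under 0.05 there was 1 at day 0 (Trp63), 0 at 4 hours and 1 at day 2 (Krt14). The part of these cell types in the differences of the 4 genes was not tested. Simple epithelium and endothelium markers had 1 measured gene each (Krt19 and Cdh5). Neither passed between the arms by limma at any time, with or without the block.

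The protein-coding neighbours of the 4 genes, 2 on each side in the reference gene order, numbered 16. Of these, 5 were measured (Cchcr1 beside Cdsn, Dzip3 beside Retnla, Tti1 and Rprd1b beside Tgm2, and Heatr6 beside Wfdc21), and by limma 0 of 5 passed the test between shKdm5ABC and shLuc at any time. At an unadjusted p under 0.05 there were 0 at day 0, 0 at 4 hours and 1 at day 2. That gene was Heatr6, with a day 2 difference of -0.37 (SE 0.13, adjusted p 0.108). With the replicate block in limma it passed as lower in shKdm5ABC cells at day 2 (adjusted p 0.0282), as did 1924 of all 13534 tested transcripts. Wfdc17 and Wfdc18, relatives that lie next to Wfdc21, were below the filter, and no annotated gene overlaps any of the 4.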

How the data were processed

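RNA and H3K4me3, KDM5A and KDM5C ChIP libraries of 3T3-L1 cells were analysed from the tables the authors deposited. RNA values are log2 tags per kb of transcript per the file headers, and the pseudocount and scaling behind them are not given in the sources used here. ChIP values are a deposited signal, tags per merged peak scaled to a common total, on mm9, and the submitters' processing notes name STAR and HOMER. Each ChIP value was a whole multiple of 1 step (100% within 0.1 of a whole number), which gave whole reads. KDM5A libraries held 3.87M to 17.6M reads, KDM5C libraries 2.95M to 8.13M and H3K4me3 libraries 8.37M to 13.6M. RNA depth is unknown.

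Groups came from sample titles. limma 3.58.1 (R 4.3.3, with trend) gave two-sided p-values, called at 0.05 after Benjamini-Hochberg adjustment. It was fitted to 13534 RNA transcripts and, as log2(tags + 1), to 87525 KDM5A peaks, with 2 libraries a group, and checked on simulated data. SE is that of the fitted difference. KDM5A errors rest on the trend over all peaks. The H3K4me3 fits held no value for these genes, their library labels are in doubt, and they are not reported. edgeR 4.0.16 was run on the reads. Same-numbered RNA libraries deviated together: their deviations from the group means correlated at 0.381 to 0.657 over 15 pairs of groups. p-values cover only the spread between these samples. All ChIP input values are from 1 input column, and the other input sample was not analysed here.

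Members and gene lists were chosen with earlier results of these data known, and some genes are not reported here. Named genes were up to 3 per list with the smallest p where any passed, the 3 most correlated transcripts (span of at least 1), peaks nearest a start or with a mean of at least 20 tags, and 2 neighbours a side.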

Additional observations from a re-analysis of the deposited data

Results flagged for a closer look

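At different times the knockdown libraries of 3 genes lay on opposite sides of both shLuc libraries. Retnla was above shLuc at day 0 and below it at day 2, with a day 2 difference 2.48 lower on the log2 scale (-2.48). Tgm2 was above shLuc at 4 hours and below it at day 2 (-2.44). Wfdc21 was above shLuc at day 0 and below it at 4 hours (-0.999) and at day 2 (-2.33). These differences were not tested, because the knockdown differences chose the genes. At day 0 the nearest libraries of the arms were close, at 3.11 in shKdm5ABC and 3.07 in shLuc cells for Retnla, and at 3.67 and 3.63 for Wfdc21. Those levels were low, with Retnla above 13.2% and Wfdc21 above 16.1% of tested transcripts in shLuc cells at day 0. The share of all transcripts that change sides in this way was not counted, so nothing is read from the number of genes.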

How the results depend on the processing

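The averaged time changes of Cdsn, Retnla, Tgm2 and Wfdc21 kept their direction where they were called, and their side of the threshold, under no filter, no trend, a pseudocount of 1 added on the linear scale, median centring and the replicate block, except that Retnla at 4 hours minus day 0 (0.45) passed with the block. With each library left out in turn, Tgm2 at 4 hours minus day 0 ranged over 0.67 to 1.18 (adjusted p 0.00171 to 0.0336), and all day 2 calls remained. The RNA calls between shKdm5ABC and shLuc were 1277, 1310 and 3809 with the block at day 0, 4 hours and day 2, and 13 to 72, 11 to 36 and 165 to 970 with a library left out.

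The KDM5A calls depended on the setting. Between day 0 and 4 hours limma called 53 peaks, and 720 with a replicate block, 0 without trend, 113 (89 up, 24 down) after centring, 11 at a pseudocount of 5, 118 among peaks of at least 20 tags, 55 by edgeR and 0 to 208 with a library left out. Between day 0 and day 2 it called 151 (119 up, 32 down), and 840, 0, 1273 (189 up, 1084 down), 81 among peaks of at least 20 tags, 1031 by edgeR and 0 to 369 with a library left out. Between 4 hours and day 2 it called 531, and 2325, 0, 2799, 247 among peaks of at least 20 tags, 1654 by edgeR and 13 to 1745 with a library left out. The cause was not tested. KDM5A replicate numbers were not taken as pairs (deviations correlated at 0.0470 to 0.333 over 3 pairs of times), and with that replicate block 1 of the 20 peaks passed between day 0 and day 2, the Wfdc21 peak at 1189 bp (adjusted p 0.0368). Of the 16 list and marker calls, 16 held with the RNA block, 3 were lost whichever library was left out, and 6 were lost under no trend, centring or no filter. ChIP totals limit peaks of a few tags.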
